A study of Mus musculus with 2 samples.

Results

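Interferon-high neutrophils are the tumour neutrophils that carried transcripts of interferon-induced genes. The type of interferon was not tested. They were chosen from measured values: a barcode needed at least 200 detected genes, at most 10% mitochondrial UMIs, at least 2% of its UMIs from the neutrophil genes S100a8, S100a9, G0s2, Csf3r and Retnlg, and at least 5 UMIs in sum from Ifit1, Ifit3 and Rsad2, with fewer than 3 C1q UMIs and no Cd3e or Cd79a UMI. A UMI is a molecular tag that counts 1 captured transcript. The rule found 517 cells among 3615 gated neutrophils, 7734 kept cells and 8335 deposited barcodes. The remaining 3098 gated neutrophils, with 0 to 4 UMIs of the 3 gate genes, are called other neutrophils below.

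The cells came from subcutaneous tumours of MOC2, a mouse oral carcinoma line injected with 40% Matrigel into female C57BL/6 mice aged 6 to 7 weeks. Once tumours had passed 80 to 100 mm3, 10 mice per arm received Momordicine-I, a cucurbitane triterpenoid of bitter melon, at 30 mg/kg intraperitoneally each day, or its vehicle of 5% DMSO in a 30% solution of Captisol, a cyclodextrin. Both arms carried the same graft and solvent. Tumours of 3 mice were pooled per arm, sorted for CD45, the surface protein of leukocytes, with propidium iodide as the stain for dead cells, and made into 1 library of 3' single-cell RNA. With 1 library per group there was no replicate and no test was run. Intervals of shares, levels and ratios are exact 95% intervals that cover counting error only. A difference between the libraries cannot be told apart from a difference between the pools of mice or between the library preparations. The interferon-high cells held 3007092 UMIs in the vehicle library (286 cells) and 2230376 in the Momordicine-I library (231 cells).

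Type I interferons are cytokines released when cells sense foreign or displaced nucleic acid. They bind the receptor pair Ifnar1 and Ifnar2, whose kinases Jak1 and Tyk2 phosphorylate STAT factors, Stat2 among them. Those factors join Irf9 and bind the interferon-stimulated response element (ISRE) before the start of antiviral genes such as Ifit1, which encodes a protein that binds foreign RNA, and Rsad2, which encodes viperin. Neutrophils are short-lived phagocytes of the blood that also enter tumours, and they carry the interferon receptor.

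The label was checked on genes outside the gate. Of the 5 markers given for these cells, 3 formed the gate, and Slfn4 and Oasl1 were the remaining ones. A Slfn4 UMI was found in 97.9% of interferon-high cells in the vehicle library and 89.6% in the Momordicine-I library. Other neutrophils had a Slfn4 UMI in 76.5% and 60.7%, and Cd79a-positive cells (B cells), as a guide to stray UMIs, in 22.9% and 12.6%. An Oasl1 UMI was found in 64.7% and 57.6% of interferon-high cells, 13.1% and 6.57% of other neutrophils and 12.6% and 5.75% of Cd79a-positive cells. Slfn4 was thus common outside the gate, and the Oasl1 shares of other neutrophils were close to those of Cd79a-positive cells. Cd3e-positive cells (T cells) had an Oasl1 UMI in 8.42% and 4.94%. In the vehicle library 7 of 231 Cd79a-positive cells held at least 5 gate UMIs, so their Oasl1 UMIs need not be stray. The cells carried neutrophil transcripts at high level: S100a8, a subunit of calprotectin, lay at 30929 and 28592 CPM (the gene's UMIs per 1000000 UMIs of the cells summed), and Csf3r, the G-CSF receptor, at 1704 and 1571 CPM. Markers of other cells were low. T cell markers summed to 16.6 CPM with vehicle and 12.6 with Momordicine-I, B cell markers to 5.32 and 1.35, carcinoma keratins and their companions to 30.6 and 36.8, and plasmacytoid markers to 0.665 and 0.448. Monocyte and macrophage markers were the exception, at 580 and 641 CPM against 341 and 396 CPM in other neutrophils. All 8 of those markers had UMIs, and 3 of 8, Ly6c2 and Ms4a7 among them, were at least 1.5-fold higher in the interferon-high cells of both libraries. A single cell held 25.9% of the interferon-high Apoe UMIs with vehicle and 27.4% with Momordicine-I. The part of such cells in the results below was not tested.

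The gate genes and several genes outside the gate share the core letters of the ISRE (TTTC, 2 bases of any kind, then TTTC, searched on both strands, so also as GAAA, 2 bases, GAAA) in the window from 250 bases before to 50 bases after the RefSeq start (GRCm38.p6). The windows below are shown because they carry these letters in 3 gate genes and in 4 genes outside the gate that are described further on. Each runs 5′ to 3′ along its gene's own strand, lies before the gene's first annotated base, and has the core in capitals.
Ifit1, chr19:34640770-34640828, plus strand, cores starting 104 and 85 bases before the start: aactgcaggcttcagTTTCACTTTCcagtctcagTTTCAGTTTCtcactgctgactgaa
Ifit3, chr19:34583358-34583431, plus strand, 156 and 122 bases before: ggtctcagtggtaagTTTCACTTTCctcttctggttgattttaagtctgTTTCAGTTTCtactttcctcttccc
Ifit3b, chr19:34607754-34607827, plus strand, 188 and 154 bases before: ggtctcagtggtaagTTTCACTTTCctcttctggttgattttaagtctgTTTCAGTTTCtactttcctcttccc
Rsad2, chr12:26456548-26456587, minus strand, 120 bases before: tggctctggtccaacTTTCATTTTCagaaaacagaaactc
Isg15, chr4:156200860-156200911, minus strand, 3 overlapping cores between 78 and 66 bases before: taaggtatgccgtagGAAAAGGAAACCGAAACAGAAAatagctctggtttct
Cxcl10, chr5:92349078-92349117, minus strand, 213 bases before: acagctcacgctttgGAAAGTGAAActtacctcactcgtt
Slfn8, chr11:83020834-83020873, minus strand, 48 bases before: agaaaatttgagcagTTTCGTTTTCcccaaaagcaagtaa

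Ifit3 and Ifit3b lie close to each other and carried the same letters in this window, and their transcripts are near-identical, so the counts of each are uncertain. Among the 59 genes of the interferon-induced lists that were higher in interferon-high cells of both libraries, 49 had a promoter in the table and 33 of these (67.3%) held an ISRE core. The share was 5.34% of the 1722 genes with a promoter among all genes compared, 3.99% of 27025 genes in the table and 3.44% of all 32851 windows. Of the 10 interferon-list genes with a promoter that were measured and not higher, 2 held one. The GAS letters TTCNNNGAA, a core bound by pairs of STAT factors, were present in 12 of the 49 (24.5%). That share was above the 8.94% of all genes compared and the 9.55% of all genes in the table. Of those 10 interferon-list genes that were not higher, 3 (30%) held the GAS letters. With so few genes no difference from the 49 is read. Of the 23 neutrophil receptor genes with a promoter, 5 (21.7%) held an ISRE core and 5 the GAS letters. None of the 8 interferon receptor and JAK genes with a promoter held an ISRE core. No core was found in the windows of Ifit2, Cmpk2, Ifi47, Oasl1, Herc6, Slfn4 and Irf7. A match describes letters and is not a measured binding site.

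Interferon-high cells made up a smaller share of the neutrophils in the Momordicine-I library. They were 286 of 1450 gated neutrophils in the vehicle library (19.7%, 17.7 to 21.9%) and 231 of 2165 in the Momordicine-I library (10.7%, 9.40 to 12.0%), a ratio of 0.541 (0.453 to 0.646). Of all kept cells they were 8.50% and 5.29%, a ratio of 0.622 (0.521 to 0.742), while gated neutrophils as a whole were 43.1% and 49.5% of kept cells. Neutrophils with at least 20 gate UMIs were 132 (9.10%) and 86 (3.97%), a ratio of 0.436 (0.329 to 0.577). Its interval overlaps that of 0.541, the first cells are nested in the second, and the difference of both ratios was not tested. Neutrophils with 0 gate UMIs were 59.6% and 74.9%. The median interferon-high cell held 17 gate UMIs with vehicle and 13 with Momordicine-I, with quartiles of 8 to 34 and 7 to 29.

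**Figure D1:**
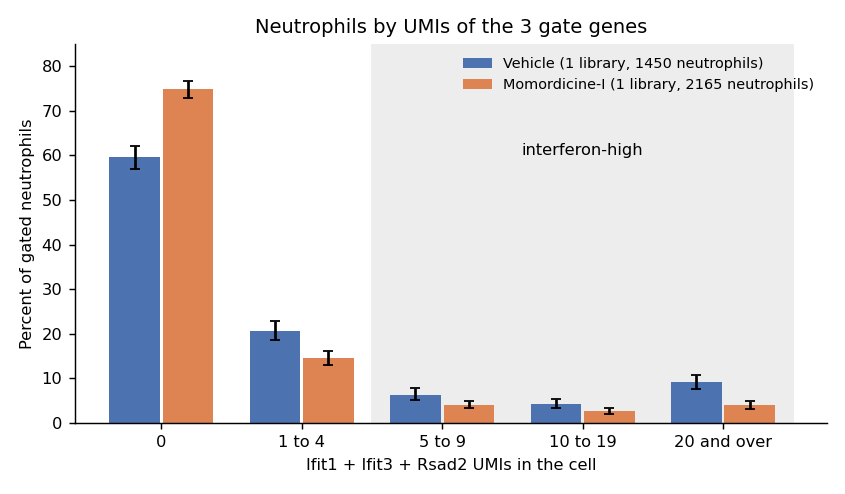
Percent of gated neutrophils (vertical axis) by the sum of Ifit1, Ifit3 and Rsad2 UMIs in the cell (horizontal axis), vehicle library (1450 cells) beside Momordicine-I library (2165 cells). Bars are shares with exact 95% binomial intervals, and the shaded groups form the interferon-high cells. The 3 shaded groups are each larger in the vehicle library, and the group with 0 gate UMIs is larger in the Momordicine-I library.

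A gate in whole UMIs depends on sequencing depth, and depth differed. Median UMIs per cell were 7229 and 6436 in interferon-high cells and 5314 and 4722.5 in other neutrophils of the vehicle and Momordicine-I libraries. With each kept cell thinned to 1500 UMIs and a gate of 2 UMIs, the shares were 16.7% and 9.17%, and with a gate at 0.1% of a cell's UMIs they were 16.8% and 8.55%. The threshold cut through a continuous range. Exactly 5 gate UMIs were found in 24 vehicle and 27 Momordicine-I cells, and exactly 4 in 37 and 24. The 85 interferon-induced genes on the lists of IFIT and OAS genes, other antiviral effectors, ubiquitin and PARP enzymes, Schlafen, Ifi200, GBP and IRG genes, without the gate genes, held 1.71% and 1.57% of all UMIs at exactly 5, and 1.80% and 1.33% at exactly 4. In this sum the vehicle cells just under the threshold thus carried no less than those just over it. Vehicle cells with 0 gate UMIs already held 1.51%. Ifitm1, which was not higher inside the gate, gave 28654 UMIs of the sum in interferon-high cells. The sum therefore says little about the induced genes at the threshold.

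Cells other than neutrophils also carried the gate transcripts. Among kept cells with under 2% neutrophil-gene UMIs, at least 5 gate UMIs were found in 6.32% of the vehicle and 4.4% of the Momordicine-I cells, a ratio of 0.696 (0.520 to 0.93). In Cd3e-positive cells of that group (T cells) the shares were 6.06% and 4.18%, and in Cd79a-positive cells (B cells) 7 of 231 and 0 of 87, the latter with an upper limit of 4.15%. Free RNA in the droplets gives stray UMIs, so shares of cells with a UMI are set beside those in Cd79a-positive cells, at median depths of 6282 and 5103 UMIs. Rsad2 UMIs were found in 98.3% and 97.4% of interferon-high cells, 19.6% and 11.9% of other neutrophils, and 7.79% and 2.30% of Cd79a-positive cells. Isg15 UMIs were found in 86.0% and 81.0%, then 39.6% and 31.7%, then 10.4% and 1.15%. Isg15 thus lay above the Cd79a-positive background in both sets of neutrophils, while the Rsad2 shares of the neutrophils were set by the gate. S100a8, an abundant neutrophil message, was found in 62.8% and 59.8% of Cd79a-positive cells.

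The 2 libraries shared 10 barcodes, none of them interferon-high. A doublet caller's own threshold marked only 2 and 1 of all kept cells and had not worked, so a rank by doublet score was used as an alternative. By that rank 2 of 286 and 5 of 231 interferon-high cells were marked, and no cell was removed for it in the main values. Of the cells with enough neutrophil UMIs, 206 and 182 were removed by the C1q, Cd3e and Cd79a limits, and 77 and 27 of these would have passed the interferon gate.

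Next, interferon-high cells were compared with other neutrophils of the same library, gene by gene, to describe what they carry beyond the gate. The gate chose the cells on the same counts, so these differences describe them and test nothing. Among 2160 genes with at least 50 CPM and 50 UMIs, 78 (3.61%) were at least 1.5-fold higher in both libraries and none (0.00%) was 1.5-fold lower in both. The median log2 ratio over these genes was -0.01 with vehicle and -0.02 with Momordicine-I. Of the 78 genes, 55 stood on 1 or more of the 32 gene lists used here, and 23 stood on none. List members were counted from 20 UMIs in each library, a lower limit than for that background.

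Transcripts of the interferons themselves were near 0 in these cells. None of 21 interferon ligand genes reached 20 UMIs, 20 and 19 of them had no UMI in the interferon-high cells of the vehicle and Momordicine-I libraries, only Ifng and Ifnab had any, and the ligands summed to 0.333 and 0.897 CPM. Of 9 receptor and JAK genes none was 1.5-fold higher in both libraries, and their median log2 ratios were 0.05 and 0.08. Ifnar1 lay at 95.1 CPM in interferon-high and 99.9 CPM in other neutrophils of the vehicle library, and at 104 and 98.9 CPM in the Momordicine-I library. Ifnar2 lay at 123 and 128 CPM, then at 152 and 143 CPM. Both receptor chains were thus at like levels inside and outside the gate. Jak1 gave ratios of 1.05 and 0.854, and Jak2 of 0.942 and 0.765.

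The transcription factors of the pathway were higher. Of 15 measured STAT and IRF genes 7 were 1.5-fold higher in both libraries. Irf7, which amplifies interferon production, lay at 225 against 57.2 CPM in the vehicle library and at 222 against 46.9 CPM in the Momordicine-I library, ratios of 3.94 (3.50 to 4.45) and 4.74 (4.20 to 5.36). Stat2 lay at 98.1 against 21.7 and at 103 against 17.6 CPM. Irf9, a DNA-binding partner of STAT factors, lay at 134 against 54.1 and at 91.0 against 34.5 CPM. Stat3, which transmits G-CSF and IL-6 signals, was not higher, with ratios of 0.904 and 0.885. Feedback inhibitors were divided: Usp18, the protease that removes ISG15 and blocks Ifnar2, lay at 105 against 9.10 CPM and at 81.2 against 5.16 CPM, and Socs1 gave ratios of 1.76 and 1.95, whereas Socs3, which restrains IL-6 and G-CSF signals, lay at 961 against 1020 and at 968 against 1038 CPM. Against neutrophils with 0 gate UMIs in place of 0 to 4, the smaller log2 ratio of both libraries was 4.61 in place of 3.53 for Usp18. With Nmi, 3 of 7 inhibitors were higher in both libraries.

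The IFIT, OAS and OASL genes, which bind foreign RNA or make a messenger in its sensing, held the highest single ratio of the named genes. Of 12 measured, 11 were higher in both libraries, with median log2 ratios of 1.96 and 2.52. Ifit2 lay at 109 against 2.24 CPM in the vehicle library and at 115 against 1.64 CPM in the Momordicine-I library, ratios of 48.6 (30.3 to 83.1) and 70.1 (44.5 to 117). It was found in only 19.2% and 22.1% of interferon-high cells. Ifit3b lay at 82.8 against 2.99 and 70.4 against 1.72 CPM. Against neutrophils with 0 gate UMIs the smaller log2 ratio of both libraries was 6.40 in place of 5.6 for Ifit2 and 5.81 in place of 4.79 for Ifit3b. The Ifit genes stand side by side on chromosome 19, where Ifit2 spans 34550694 to 34576419 and Ifit1 34640871 to 34650009. Oasl1, an RNA-binding protein that restrains Irf7 translation, lay at 237 against 33.1 and 169 against 17.2 CPM, ratios of 7.14 (6.2 to 8.25) and 9.81 (8.26 to 11.7). Oasl2 and Oas3 were broader, with Oasl2 found in 91.6% and 89.6% of interferon-high cells at ratios of 2.22 and 2.23.

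Among other antiviral effectors 12 of 17 were higher in both libraries. Cmpk2, a mitochondrial nucleotide kinase whose gene neighbours Rsad2 on chromosome 12, lay at 99.8 against 4.11 and 105 against 2.29 CPM, ratios of 24.3 (16.9 to 35.9) and 46.0 (31 to 70.7). Isg15, the ubiquitin-like modifier, lay at 916 against 193 and 829 against 136 CPM, ratios of 4.74 (4.46 to 5.05) and 6.09 (5.69 to 6.51). The interferon-induced membrane proteins were divided: Ifitm3 gave ratios of 2.11 and 2.38, and the far more abundant Ifitm1 gave 0.924 and 0.942, at 5931 and 4850 CPM inside the gate.

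On the list of ubiquitin-like and PARP modifiers, 16 of 19 measured genes were higher in both libraries. Most of them attach ubiquitin, ISG15 or ADP-ribose, and Usp18, described above, is on this list as well. Herc6, the mouse ligase that attaches ISG15, lay at 119 against 16.7 and 120 against 9.74 CPM, ratios of 7.13 (5.83 to 8.76) and 12.3 (9.87 to 15.4). Parp14, an ADP-ribosyltransferase, gave 5.32 (4.59 to 6.18) and 5.30 (4.53 to 6.19). The TRIM family members differed less: Trim30a gave 1.78 and 1.88 and Trim30b 1.30 and 1.32. Nucleic acid sensors were higher for 8 of 13. Ddx58 (RIG-I), which senses viral RNA, gave 3.90 and 4.26, Ifih1 (MDA5) 4.30 and 5.18, Ddx60 4.5 and 4.70, and Zbp1, a sensor of Z-form nucleic acid, 4.12 and 4.74. Myd88, the adaptor of Toll-like receptors, gave 1.21 and 1.30.

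The Schlafen genes, a family induced by interferon and linked to control of growth and translation, included the given marker Slfn4. Slfn4 lay at 1563 against 539 CPM in the vehicle library and 1096 against 307 CPM in the Momordicine-I library, ratios of 2.90 (2.78 to 3.02) and 3.57 (3.39 to 3.75). It was thus abundant outside the gate as well. Slfn5 was more selective, at 498 against 83.7 and 448 against 46.4 CPM, ratios of 5.95 (5.43 to 6.53) and 9.66 (8.71 to 10.7), and so was Slfn8, at 110 against 18.1 and 96.4 against 16.5 CPM. Slfn2 gave ratios of 1.47 and 1.42, under the 1.5-fold limit. In all 4 of 6 measured Schlafen genes were higher in both libraries.

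All 8 measured Ifi200 genes, whose products bind DNA, and 9 of 10 measured GTPases of the GBP and IRG families, which attack membranes of intracellular microbes, were higher in both libraries. Both groups hold near-identical copies, so the split between members is uncertain. Ifi204 lay at 371 against 60.2 and 340 against 57.0 CPM, ratios of 6.17 (5.54 to 6.87) and 5.97 (5.37 to 6.62). Gbp2 lay at 253 against 46.0 and 202 against 39.7 CPM. Ifi47, an IRG GTPase, gave 12.2 (9.18 to 16.5) and 14.2 (10.7 to 18.9), and Irgm1, a regulator of that family, 6.78 (5.43 to 8.50) and 10.5 (8.36 to 13.2).

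**Figure D2:**
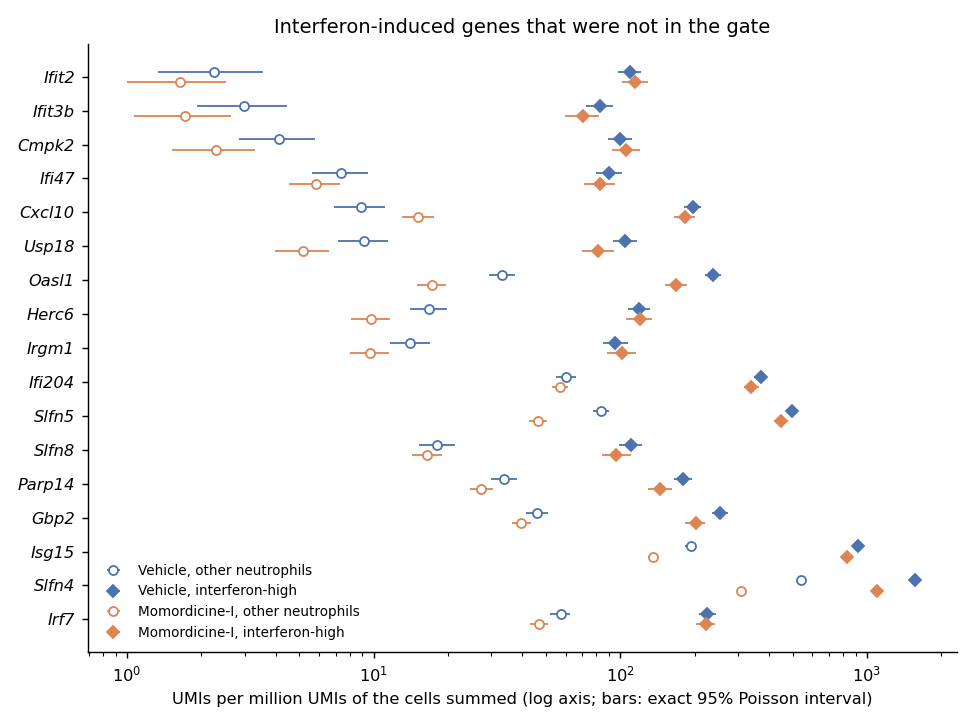
Level in CPM (horizontal log axis) of 17 interferon-induced genes outside the gate, in interferon-high (filled diamonds) and other neutrophils (open circles) of the vehicle and Momordicine-I libraries, 1 library each, with exact 95% Poisson intervals. The diamonds lie to the right of the circles for each gene in both libraries, from Ifit2 with ratios of 48.6 and 70.1 to Slfn4 with 2.90 and 3.57.

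Antigen presentation was higher by less. Of 20 class I genes 10 were 1.5-fold higher in both libraries, with medians of 0.81 and 0.51 on the log2 scale. Tap1, a chain of the peptide transporter, gave 2.69 and 2.23. B2m, the invariant chain, lay at 1967 against 1358 and 1775 against 1415 CPM, and H2-K1 gave 1.38 and 1.18, so the most abundant class I messages stayed below 1.5-fold. Of 7 class II genes 1 (Ciita, their activator) was higher in both, with 65.2% and 100% of its UMIs in 1 cell, and a single cell held 44.9% and 75.2% of the Cd74 UMIs of the interferon-high cells.

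Of 14 measured chemokines on the list only Cxcl10, a T cell attractant that binds Cxcr3, was higher in both libraries, at 196 against 8.85 and 182 against 15.1 CPM, ratios of 22.2 (17.3 to 28.8) and 12.0 (10.1 to 14.4). It was found in 10.8% and 15.6% of interferon-high cells and 3.95% and 4.08% of other neutrophils, and 1 interferon-high cell held 21% and 45.6% of those UMIs. Cd3e-positive cells, at median depths of 8837 and 7901 UMIs, had a Cxcl10 UMI in 9.76% and 9.13%, and Cd79a-positive cells in 5.19% and 0%. The vehicle share thus lay close to that of the Cd3e-positive cells, and no difference in the share of cells is read from it. The smaller of both log2 ratios was 3.59, and 2.72 without the highest cell of each group. Cxcl2, the neutrophil attractant and most abundant chemokine, lay at 37418 against 35366 and 34370 against 33844 CPM. Il1b gave ratios of 1.01 and 0.969. Of 19 measured cytokines 3 were higher in both, all under 25 CPM: Il18 with 2.03 and 1.92, its inhibitor Il18bp with 1.57 and 2.26, and Il27 with 1.82 and 1.67. Il6 had 9 and 4 UMIs inside the gate and was counted through its UMIs in other neutrophils, so no direction is read from it. Of 15 checkpoint and co-stimulation genes Lgals9 was higher in both, at 1.72 and 1.82, and Cd274 (PD-L1) lay at 786 against 615 and 716 against 527 CPM, ratios of 1.28 (1.22 to 1.34) and 1.36 (1.28 to 1.43). Of 19 cell death genes 5 were higher in both: Xaf1 with 7.11 and 5.81, Daxx with 3.11 and 1.85, Casp1 with 2.57 and 1.74, Casp8 with 1.93 and 1.69, and Casp4 with 1.56 and 1.5.

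Of the neutrophil identity and activation lists, none of 18 mature blood neutrophil genes, 18 tumour neutrophil genes, 28 neutrophil receptors, 18 hypoxia and glycolysis genes or 18 NF-kB and immediate early genes was 1.5-fold higher in both libraries. Ratios of mature blood neutrophil genes ran from 0.631 to 1.44 and those of tumour neutrophil genes from 0.315 to 3.15. Of 8 measured early granule genes none was higher and 1 was lower in both libraries, with ratios from 0.228 to 5.20 and median log2 ratios of -0.96 and 0.05. A single interferon-high cell held 81.7% and 96.4% of the UMIs of Ngp, a granule protein of immature neutrophils. Receptor ratios ran from 0.784 to 1.33, with Cxcr2, the receptor for Cxcl2, at 0.973 and 0.935. Hypoxia ratios ran from 0.838 to 1.35 and NF-kB ratios from 0.893 to 1.25. Nfkbia, the inhibitor of NF-kB, lay at 4973 against 4214 and 5476 against 4372 CPM. Over all interferon-induced lists, in contrast, 59 of 71 measured genes were higher in both libraries, with medians of 1.98 and 2.08 on the log2 scale.

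**Figure D3:**
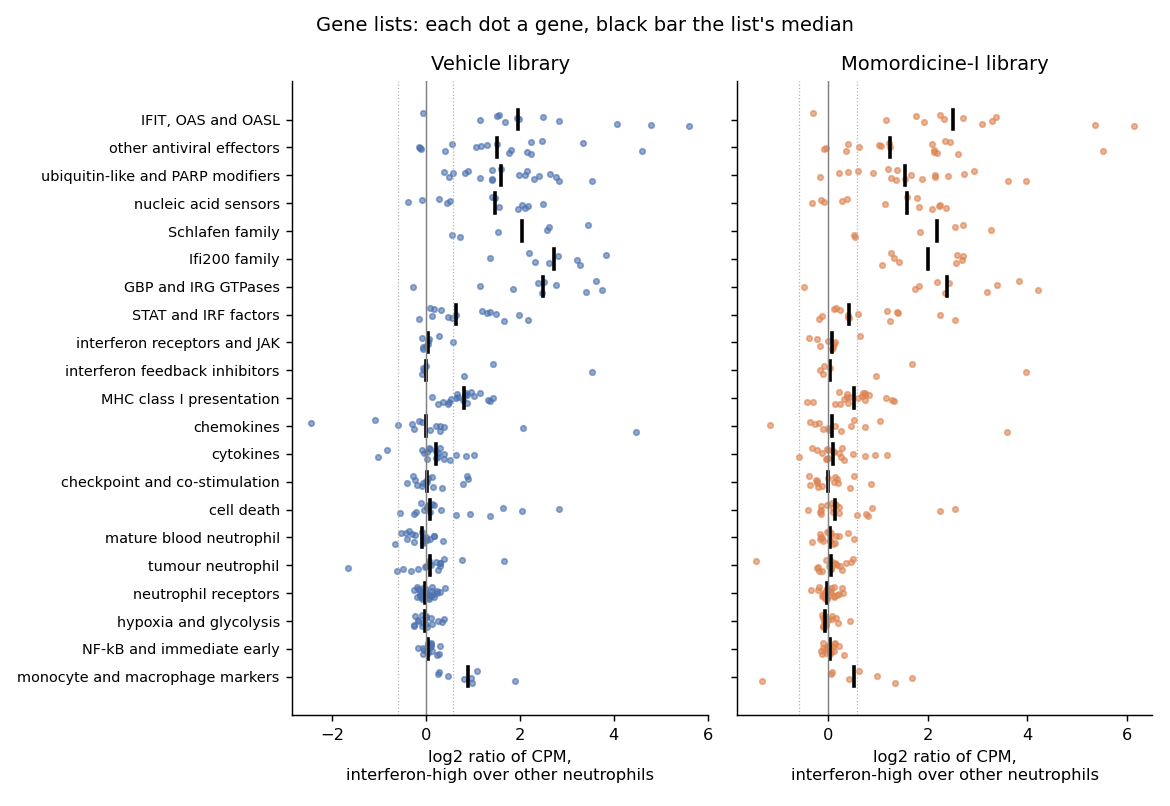
Log2 ratio of CPM, interferon-high over other neutrophils (horizontal axis), for each measured member (dot) of the gene lists (rows), vehicle library left and Momordicine-I library right, 1 library each. Black bars mark list medians and dotted lines the 1.5-fold limits. Medians of the IFIT, OAS and OASL genes lie at 1.96 and 2.52, while those of the neutrophil receptors lie at -0.01 and -0.02.

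Of the 23 higher genes on no list, Epsti1 lay at 96.4 against 27.4 CPM with vehicle and 87.9 against 24.8 CPM with Momordicine-I. Trafd1, a negative regulator of innate signalling, lay at 146 against 41.4 and 123 against 35.1 CPM, and Adar, the RNA-editing enzyme, at 50.2 against 25.9 and 55.6 against 23.2 CPM. Samd9l, a restriction factor of poxviruses, lay at 203 against 82.5 and 168 against 62.9 CPM. Ccl24, a chemokine that attracts eosinophils and stood on no list, was among them through 1 cell that held 87.1% and 98.0% of its UMIs. On the lower side the 10 genes with the clearest ratios under 1 in both libraries included Alox5, Car4, Cir1, Nlrp12, Lars2, Kansl3, Stfa2l1, Cdc42ep3 and Trf, and none of the 10 passed 1.5-fold in both. Alox5, the first enzyme of leukotriene synthesis, lay at 43.6 against 58.9 and 39.0 against 55.7 CPM, ratios of 0.739 (0.604 to 0.899) and 0.7 (0.553 to 0.876). Nlrp12, a brake on inflammatory signalling, gave 0.786 and 0.693, and Car4, a carbonic anhydrase, 0.529 and 0.763.

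Levels outside the gate genes followed the gate UMIs in steps. Isg15 in the groups with 0, 1 to 4, 5 to 9, 10 to 19, and 20 or more gate UMIs lay at 143, 296, 409, 630 and 1381 CPM in the vehicle library and at 113, 212, 415, 559 and 1379 CPM in the Momordicine-I library. Slfn4 lay at 435, 755, 1033, 1382 and 1997 CPM, and at 260, 460, 753, 916 and 1525 CPM. Both genes were higher at each step, and Isg15 ended at a like level in both libraries. Cxcl10 showed no such steps: it lay at 7.95, 10.7, 19.9, 1.60 and 399 CPM, and at 13.5, 20.3, 11.2, 45.5 and 425 CPM, so it was high in the top group alone. Across interferon-high cells the share of UMIs from the gate genes and from the other interferon-list genes had a Spearman's rho of 0.57 (286 vehicle cells) and 0.56 (231 Momordicine-I cells). Both shares come from the same library and divide by the same cell total, so these are descriptions. The response was also broad within a cell: at 1500 UMIs per cell, the median interferon-high cell had UMIs of 15 and 13 of the 85 listed genes, and the median other neutrophil of 8 and 7. Thinning left out 3 and 1 interferon-high and 66 and 101 other cells that were shallower.

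**Figure D4:**
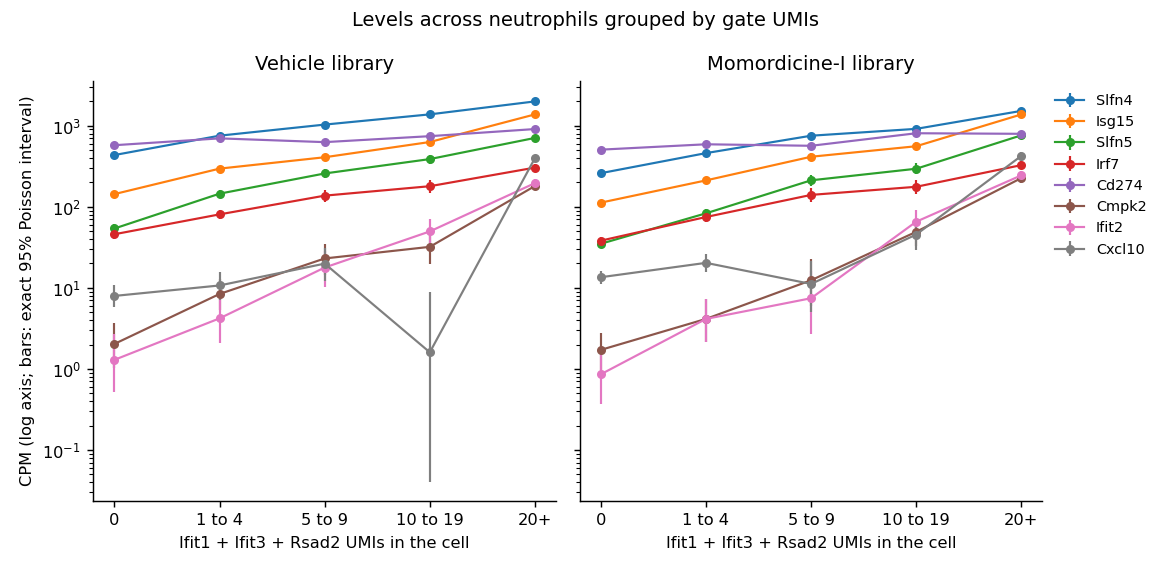
CPM (vertical log axis) of 8 genes outside the gate in neutrophils grouped by gate UMIs (horizontal axis), vehicle library left and Momordicine-I library right, with exact 95% Poisson intervals. Isg15 goes from 143 to 1381 CPM and from 113 to 1379 CPM across the groups, and Cxcl10 stands high in the last group alone, at 399 and 425 CPM.

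The last comparison set the Momordicine-I library against the vehicle library within the interferon-high cells, to describe whether the response inside the gate differed under treatment. Of 2293 genes 70 (3.05%) were at least 1.5-fold higher and 39 (1.70%) at least 1.5-fold lower, around a median log2 ratio of 0.03 over all these genes. Of 72 measured interferon-induced genes 3 were higher and 10 lower, with a median of -0.20, and in other neutrophils 6 were higher and 17 lower, with a median of -0.24. In other neutrophils the median over all the genes was 0.06, and no share of genes past 1.5-fold was taken. List members needed 20 UMIs over both libraries, a lower limit than for the 2293 genes. The counts of list members are therefore not read against the shares over all genes. The difference between both sets of cells was not tested. The near-identical Ifi200 genes gave 2 of the higher and 4 of the lower calls, and their median of -0.50 was 0.57 after thinning and 0.72 with the neutrophil gate at 5%. Single genes of the response differed. Ifit2 gave 1.05 (0.890 to 1.24) and Irf7 0.986 (0.877 to 1.11), intervals that hold 1, and Isg15 gave 0.904 (0.852 to 0.959). Usp18 gave 0.775 (0.642 to 0.933) and Irf9 0.681 (0.572 to 0.808). Outside the gate Ifit2 gave 0.730 (0.367 to 1.46), Irf7 0.820, Isg15 0.705, Usp18 0.567 and Irf9 0.637. The cells were chosen on gate genes whose levels go with these genes, and the part of that choice in the ratios was not tested. Slfn4 and Oasl1 were lower in both sets, at 0.701 (0.668 to 0.737) and 0.712 (0.627 to 0.808) inside and 0.570 and 0.519 outside. Ifi27l2a, a gene induced by interferon, lay at 665 CPM with vehicle and 372 CPM with Momordicine-I inside the gate, a ratio of 0.559 (0.515 to 0.607), and gave 0.603 outside it.

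The clearest differences between the libraries were in genes outside the interferon lists. Chil3, the chitinase-like protein Ym1, lay at 251 and 632 CPM, a ratio of 2.52 (2.30 to 2.75), and at 3.55 in other neutrophils. It was found in 15.0% of vehicle and 55.0% of Momordicine-I interferon-high cells (7.07% and 32.6% at 1500 UMIs per cell), against 3.03% and 8.05% of Cd79a-positive cells. Cd3e-positive cells had a Chil3 UMI in 7.74% and 17.1%, so the share was higher with Momordicine-I there as well. The log2 ratio of Chil3 depended on how cells were weighed, at 1.33 from summed UMIs, 2.37 from the mean of the cells' CPM and 4.21 after thinning. In the vehicle library 1 cell held 17.1% of the Chil3 UMIs of the interferon-high cells. Saa3, an acute phase protein, lay at 58.5 and 305 CPM, a ratio of 5.21 (4.41 to 6.18) against 2.82 outside the gate, and was found in 8.39% and 19% of cells, against 1.73% and 3.45% of Cd79a-positive cells, with 1 cell holding 22.7% and 24%. Mt1, a metal-binding protein, gave 3.21 (2.90 to 3.56) inside and 1.5 outside. Ccl2, the monocyte attractant, gave 2.70 and 2.10, and Prnp, the prion protein, 2.53 and 2.16. The log2 ratio of Saa3, 2.38, was 1.90 with the gate at 0.1% of UMIs, 2.01 without the highest cell, 2.02 after thinning and 2.97 with the neutrophil gate at 5%. That of Ccl2, 1.43, was 1.01 with the neutrophil gate at 1%, 1.76 with the gate at 0.1% of UMIs and 2.31 after thinning.

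Among the named genes higher with Momordicine-I, the linker histone H1f0 lay at 13.6 and 65.5 CPM inside the gate, a ratio of 4.80 (3.37 to 6.97) against 1.49 outside, with a log2 ratio of 2.26 that was 1.79 after thinning, 3.27 from the mean over cells and 3.03 with the neutrophil gate at 5%. The core histone Hist1h4i lay at 82.8 and 237 CPM, a ratio of 2.86 against 2.52.

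On the lower side Prok2, a secreted chemoattractant, lay at 202 CPM with vehicle and 55.1 CPM with Momordicine-I, a ratio of 0.273 (0.223 to 0.332) against 0.705 outside the gate, and was found in 23.4% and 8.66% of cells. Cd79a-positive cells had a Prok2 UMI in 1.30% and in 0 of 87 cells, which allows up to 4.15%. Thbs1, thrombospondin, lay at 2377 and 1292 CPM, a ratio of 0.544 (0.520 to 0.568) against 0.697. Spp1, osteopontin, gave 0.495 and 0.556, and Hes1, a Notch target, 0.372 inside and 1.2 outside. Under other settings the log2 ratio of Prok2, -1.87, was -1.54 (gate at 3 UMIs) to -2.67 (gate at 0.1% of UMIs), and that of Hes1, -1.43, was -1.06 (without the highest cell) to -2.56 (thinned). That of Spp1, -1.01, was -2.30 with the neutrophil gate at 1%, -0.76 with the gate at 0.1% of UMIs, -0.77 without the highest cell and -0.55 after thinning, the last under the 1.5-fold limit. Il1rn, the interleukin-1 receptor antagonist, lay at 1536 and 870 CPM, a ratio of 0.567 (0.537 to 0.598) against 0.762. Several ratios rested on few cells. The near-identical cystatin genes Stfa2, Cstdc5 and Stfa1 gave 0.205, 0.269 and 0.468, with 1 cell holding 31.4 to 52.5% of their UMIs, and each turned direction with the gate at 0.1% of UMIs, to log2 ratios of 0.23, 0.99 and 0.72. Camp, a granule peptide of immature neutrophils, gave 0.360 with 98.9% and 98.0% of its UMIs in 1 cell, and its log2 ratio was 5.04 without the highest cell. Ccl24 gave 2.26, and a log2 ratio of -4.47 without its highest cell.

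**Figure D5:**
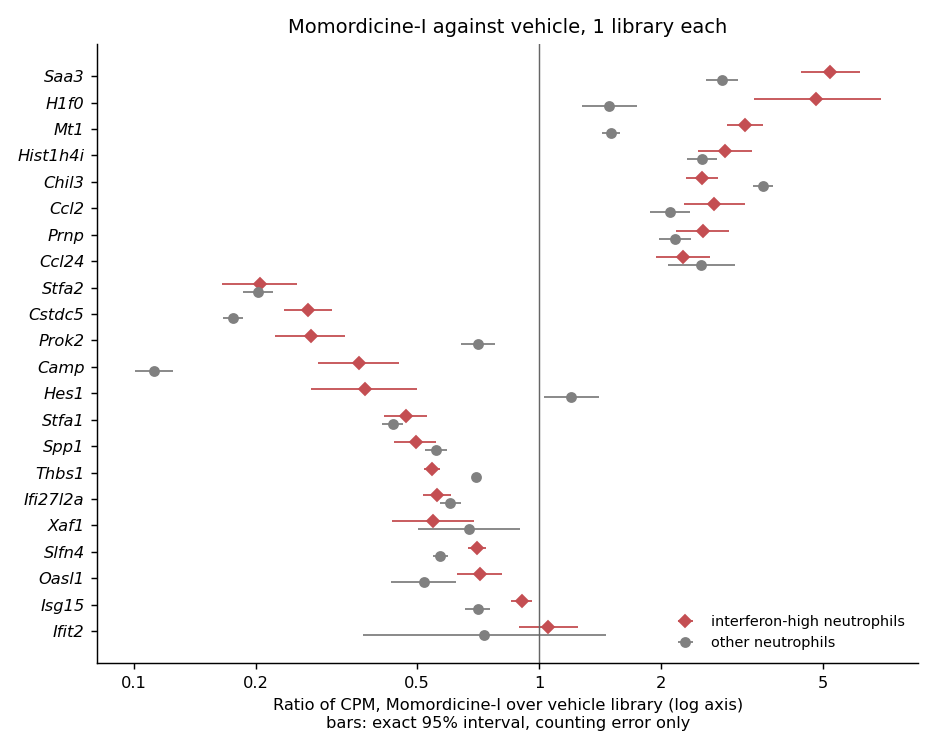
Ratio of CPM, Momordicine-I over vehicle library (horizontal log axis), in interferon-high (red diamonds) and other neutrophils (grey circles), 1 library each, with exact 95% intervals for counting error. Saa3 (5.21 inside, 2.82 outside) and Chil3 (2.52 and 3.55) lie right of 1, Prok2 (0.273 and 0.705) lies left of it, and inside the gate Ifit2 lies at 1.05 and Isg15 at 0.904.

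The smaller share of interferon-high cells was seen in each of 3 neutrophil states. Cells with at least 2 UMIs of Ly6g and Mmp8, genes of mature blood neutrophils, were 27.3% of interferon-high cells with vehicle and 42.4% with Momordicine-I, and 20.3% and 30.4% of other neutrophils. Within them the interferon-high share was 24.8% and 14.3%, a ratio of 0.576 (0.423 to 0.786). Within cells with a Siglecf UMI, a marker of a tumour neutrophil state, it was 21.2% and 12.8%, a ratio of 0.606 whose interval reached 1 (0.367 to 1.00). Within cells with a Chil3 UMI it was 24.2% and 16.5%, a ratio of 0.683 (0.480 to 0.989). The thresholds of these states depend on depth, and the states overlap.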

How the data were processed

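Per the labels, CD45-sorted tumour cells were loaded with the 10x Genomics 3' kit v3.1. Cell Ranger 6.0.2 and mm10 are named in the submitters' processing notes. The authors deposited raw UMI counts of 32285 genes for 3642 vehicle and 4693 Momordicine-I barcodes (33998491 and 41804810 UMIs). After the gene and mitochondrial limits, 3364 and 4370 cells were kept. UMIs were summed over interferon-high and other neutrophils of each library and given as CPM. Shares have Clopper-Pearson, levels Poisson and ratios conditional binomial 95% intervals, and UMIs of 1 cell were taken as independent. A gene counted as higher or lower at 1.5-fold. Doublets were left in, and removed by scrublet score rank as an alternative.

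The cells and the 32 lists were chosen with earlier results of these data known. Named by rule were 14 higher and 10 lower genes with the same direction in both libraries. Of each gene the log2 ratio nearer to 0 was taken, and those farthest from 0 were named. Between libraries the 8 higher and 8 lower genes whose intervals lay farthest from 1 were named. Up to 4 members per list by UMIs and the 5 given markers were added. The single genes Ifnar1, Ifnar2, Stat2, Irf9, Socs1, Nmi, Ifih1, Tap1, Xaf1, Daxx, Casp1, Casp4, Casp8, Ciita, Il18, Il18bp, Il27, Il6, Ms4a7, Ifi27l2a, Epsti1, Trafd1, Adar and Samd9l were chosen after their values were seen. Positions are from GENCODE and promoters from RefSeq, both GRCm38 (mm10). Python 3.11.15, scipy 1.17.1 and scanpy 1.11.5 were used. On simulated counts of the library comparison, all 50 genes made at each of 4, 2, 0.5 and 0.25 times passed 1.5-fold, and 1 of 2050 unchanged genes did. The simulation drew Poisson counts from summed UMIs, without differences between cells, mice or libraries. It checks the calculation and gives no rate of false calls for these data. Alternatives covered both gates, thinning, doublets, filters, means over cells and leaving out each gene's highest cell. Some genes that the rule names are not reported here.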

Additional observations from a re-analysis of the deposited data

How the results depend on the processing

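No paired analysis was possible because each group had 1 library, and for the same reason no library could be left out. The ratio of the interferon-high share between the libraries (0.541) ran from 0.494 to 0.622 over its alternatives. The count of 78 genes higher in interferon-high cells of both libraries was 121 with a filter at 20 CPM and 20 UMIs and 294 with no CPM minimum. The count of 0 lower genes was 3 with the interferon gate at 10 UMIs, 6 with it at 0.1% of UMIs, 4 with the neutrophil gate at 1%, 24 after thinning, 1 with the mean of the cells' CPM, 2 without each gene's highest cell and 207 with no CPM minimum. Between the libraries, the 70 higher genes were 110 with the gate at 10 UMIs, 134 with the neutrophil gate at 5%, 110 after thinning, 295 with the filter at 20 and 1354 with no CPM minimum, and the 39 lower genes were 61 with the gate at 0.1%, 76 after thinning, 105 with the filter at 20 and 710 with no CPM minimum. Lower filters test more genes with few UMIs. For the rest the cause was not tested. The interferon-induced median of the Momordicine-I library (2.08) was 2.45 with the gate at 0.1%, 2.46 after thinning and 2.46 with the mean of the cells' CPM. The median between the libraries (-0.20) was -0.26 with the gate at 3 UMIs, -0.075 with the gate at 0.1%, -0.085 with the neutrophil gate at 5%, -0.046 after thinning and -0.13 with the mean of the cells' CPM. The intervals of the values with the gate at 0.1% (-0.115 to 0.0247), the neutrophil gate at 5% (-0.137 to 0.0216) and thinning (-0.185 to 0.053) held 0. Log2 ratios between the libraries turned direction for Ccl24 (-4.95 with the neutrophil gate at 5%, -0.24 after thinning, -4.47 without the highest cell), Stfa2 (0.23 with the gate at 0.1%), Cstdc5 (0.81 with the gate at 10 UMIs, 0.99 with it at 0.1%, 1.35 after thinning), Camp (5.04 without the highest cell) and Stfa1 (0.42 with the gate at 10 UMIs, 0.72 with it at 0.1%, 1.31 after thinning). Of 1314 alternatives for single genes and lists, 1100 stayed within the interval of the main value and 203 moved beyond it. For list medians that interval was again the spread between genes. The other 11 turned direction from a main value of at least 1.5-fold. A turn from a smaller main value was counted among the 1100 or the 203. Among these was Cxcl10 between the libraries, at -0.11 and at 1.05 with the neutrophil gate at 5%. The Ifi200 median between the libraries was another.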
